A study of Mus musculus with 6 samples.

Results

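The 3 arrays described here hold the total RNA of granule cells isolated from the hippocampus of control mice, out of 6 arrays in the study. They were chosen by their descriptions alone, which name DGCs, read here as dentate granule cells, from control mouse 1 (1 array) and control mouse 2 (2 arrays). The other 3 arrays, of transgenic mice that overexpress the RNA-binding protein HuD, were not compared. The labels give neither strain, sex nor age of the control mice, nor what their control genotype was. The titles name the arrays differently from the descriptions: the array of mouse 1 carries the tag re-LCM, and those described as mouse 2 are numbered control 1 and control 2, so it is uncertain that they share a mouse. The descriptions were followed, which leaves 2 mice and 3 arrays, and every spread (SD) below is over the 3 arrays and mixes technical with animal differences.

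Granule cells are the principal neurons of the dentate gyrus, the entry station of the hippocampus. They receive glutamatergic input from the entorhinal cortex on spiny dendrites and send mossy fibres, whose large terminals hold glutamate and zinc, to mossy cells and to the pyramidal cells of CA3. The dentate gyrus keeps producing them from local progenitors in the adult. Prox1, a homeobox transcription factor, is needed for their identity and separates them from pyramidal cells.

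All 5 granule cell markers gave signal on each of the 3 arrays. Below are the 150 bases before the RefSeq transcription start of 4 of them (assembly GRCm38.p6), shown because these genes carry the check of the cell label. Each is read 5′ to 3′ on the strand of the gene, and capitals mark TATAAA or TATATA on that strand and GGGCGG or its reverse complement CCGCCC. The stretch of Prox1, before the first of its starts in the table, lies at chr1:190170828-190170977 on the minus strand, Dsp at chr13:38151144-38151293 on the plus strand, C1ql2 at chr1:120340432-120340581 on the plus strand and Tdo2 at chr3:81975729-81975878 on the minus strand.
Prox1: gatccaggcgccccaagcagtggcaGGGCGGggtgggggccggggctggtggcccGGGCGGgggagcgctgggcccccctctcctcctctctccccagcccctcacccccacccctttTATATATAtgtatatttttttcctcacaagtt
Dsp: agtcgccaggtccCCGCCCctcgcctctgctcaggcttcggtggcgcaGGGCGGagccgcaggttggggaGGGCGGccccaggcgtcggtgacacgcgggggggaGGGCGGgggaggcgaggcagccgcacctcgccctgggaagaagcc
C1ql2: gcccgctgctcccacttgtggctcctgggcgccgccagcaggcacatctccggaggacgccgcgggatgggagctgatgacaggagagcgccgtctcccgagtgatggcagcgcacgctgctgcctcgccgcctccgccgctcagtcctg
Tdo2: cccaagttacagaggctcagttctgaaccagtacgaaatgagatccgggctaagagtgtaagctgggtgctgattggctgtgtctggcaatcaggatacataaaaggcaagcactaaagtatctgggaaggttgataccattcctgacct
The Prox1 stretch shown has 2 overlapping TATATA matches, the first starting 32 bases before the start, and 2 GC boxes. The stretch before its other start in the table, not shown, has 0 TATA matches, 1 GC box and 9 CpG pairs. Dsp has 4 GC boxes and no TATA match, and C1ql2 and Tdo2 hold neither motif. CpG pairs number 16 in Dsp, 16 in C1ql2, 6 in the Prox1 stretch shown and 2 in Tdo2, beside a median of 4 over the 32851 promoter windows in the table. Among those windows 7.05% hold a TATA match and 28.6% a GC box in the same stretch.

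Values are probe set intensities on a linear scale, and levels are given as their log2. A probe set is a group of short probes that reads one stretch of a transcript, mostly near its 3′ end. Values below an intensity of 10.6 (log2 3.41), the 25th percentile of the 3 arrays, were set to that floor. Each of the 18193 ranked genes is represented by its brightest probe set. Probes bind with different strengths, so ranks order brightness and not amounts of mRNA. For a lower bound of signal, the 95th percentile of 66 genes known from organs other than brain was taken as a reference level. It lay at 5.69 (intensity 51.7), and 9616 ranked genes (52.9%) were above it. Counts of list members above this level are to be read beside that share. The gene lists below and their members were chosen with earlier results of these data known, so their counts are not independent evidence. In such bulk RNA, fewer cells of a type and less RNA per cell cannot be told apart.

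Overall signal was set alike by the authors' scaling of each array. The median intensity was 34.1 on mouse 1 and 36.8 and 36.2 on mouse 2. The 3′ to 5′ signal ratio of the control probe sets, a measure of how complete the labelled RNA is, was 17.4, 22.7 and 24.2 for Actb and 6.92, 8.40 and 7.87 for Gapdh in the same order. Each ratio was far above 1, so signal fell off towards the 5′ end of these transcripts. Probe sets far from a 3′ end may therefore read low, which was not tested. Pearson's r across the 18193 genes, which are not independent replicates, was 0.963 and 0.966 between the mice and 0.961 between the arrays of mouse 2. The pair described as mouse 2 thus correlated slightly less closely than either pair across the mice.

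Brightness was concentrated in few genes. The 100 brightest genes held 15.1% of the summed intensity of all ranked genes on mouse 1 and 17.0% and 15.4% on mouse 2, a mean of 15.8% ± 1.05 (SD, n = 3 arrays). The brightest 1% (182 genes, from log2 12.60) held 24.0% ± 1.33 and the brightest 10% (1819 genes, from log2 9.73) held 70.5% ± 1.01. The median gene was at 5.94. The spread between arrays was small at the top, with a median SD of 0.15 log2 units in the brightest 1%, against 0.21 between the brightest 10% and the reference level and 0.47 below it.

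**Figure D1:**
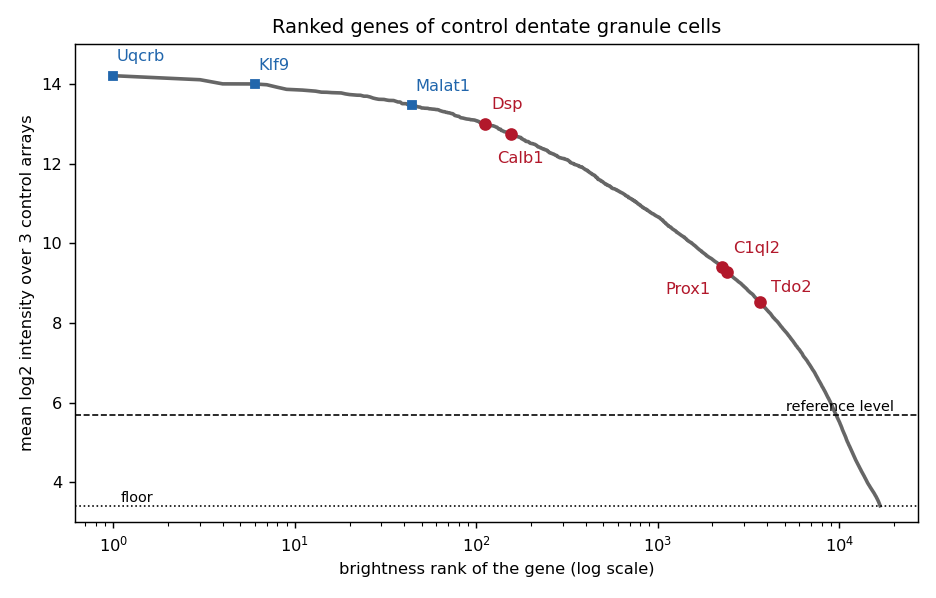
Mean log2 intensity over the 3 control arrays (vertical axis) of the ranked genes against their brightness rank (horizontal log axis), with the 5 granule cell markers as red circles and Uqcrb, Klf9 and Malat1 as blue squares. The curve falls from 14.20 at rank 1 through 13.07 at rank 100 to the floor, and all 5 markers lie above the dashed reference level of 5.69.

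The brightest gene was Uqcrb, a subunit of respiratory complex III, at 17953 on mouse 1 and 21983 and 17027 on mouse 2 (log2 14.20 ± 0.19). Ywhab, a 14-3-3 adaptor protein, followed at 17031, 20338 and 17028 (14.14 ± 0.15). Enc1, an actin-associated protein of the nervous system, came next at 16208, 20289 and 16582 (14.10 ± 0.18). These 3 genes held the leading 3 places on each array, and array 1 of mouse 2 had the largest value for each of them. Rps29, a small-subunit ribosomal protein, stood at 14.00 ± 0.20, and Klf9, a transcription factor induced by glucocorticoids and thyroid hormone, at 14.00 ± 0.18 with 14698, 18717 and 15878. Gpm6a, a membrane glycoprotein of growing neurites, stood at 13.98 ± 0.15. The neighbours in this order, Uqcrb to Gpm6a, differed by less than their SDs.

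Several families supplied these genes. Among the 100 brightest, 9 were subunits of the respiratory chain and ATP synthase, 6 were cytoskeletal, 5 were ribosomal proteins and 63 belonged to none of the gene lists used. The 30 brightest held the cytochrome oxidase subunits Cox6b1 (13.75 ± 0.10), Cox6a1 (13.73 ± 0.19), Cox5b (13.69 ± 0.19) and Cox6c (13.61 ± 0.27). They also held Cfl1, the actin-severing protein cofilin (13.85 ± 0.29), Tuba1a, an alpha-tubulin (13.78 ± 0.20), Pfn2, a neuronal profilin (13.71 ± 0.13), and Dynll1, a dynein light chain (13.69 ± 0.14). Ppp3ca, the catalytic subunit of calcineurin, had one of the smallest spreads at 13501, 14957 and 13517 (13.77 ± 0.08). Ddn, dendrin, a postsynaptic protein whose mRNA is carried into dendrites, read 11488, 14600 and 12030 (13.63 ± 0.18).

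Which gene stood at the top depended on the choice of probe set. Names ending in _x_at, which mark probes that may bind other transcripts too, made up 36.3% of the probe sets in the brightest 1% and 4.53% of all ranked ones. Of the 200 brightest genes, 179 had several probe sets, with a median gap of 2.38 log2 units between the first and the second, and 74 had a dimmest probe set below the reference level. Enc1 is an example, with 14.10, 12.28 and 4.14 on its 3 probe sets, and Cox5b ran from 13.69 to 3.57. Cfl1 had 13.85 on an _x_at probe set and 6.15 on its other one, and the only probe set of Tuba1a is an _x_at one. With the median over a gene's probe sets in place of the brightest, 38 of the 100 brightest genes were shared with the order above, and without _x_at and _s_at probe sets 50 were. The 22 genes among the 100 brightest under all 10 settings included Uqcrb, Ywhab, Enc1, Ppp3ca, Ndrg4, Pfn2, Ddn, Atp1b1, Pcp4 and Sptan1.

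**Figure D2:**
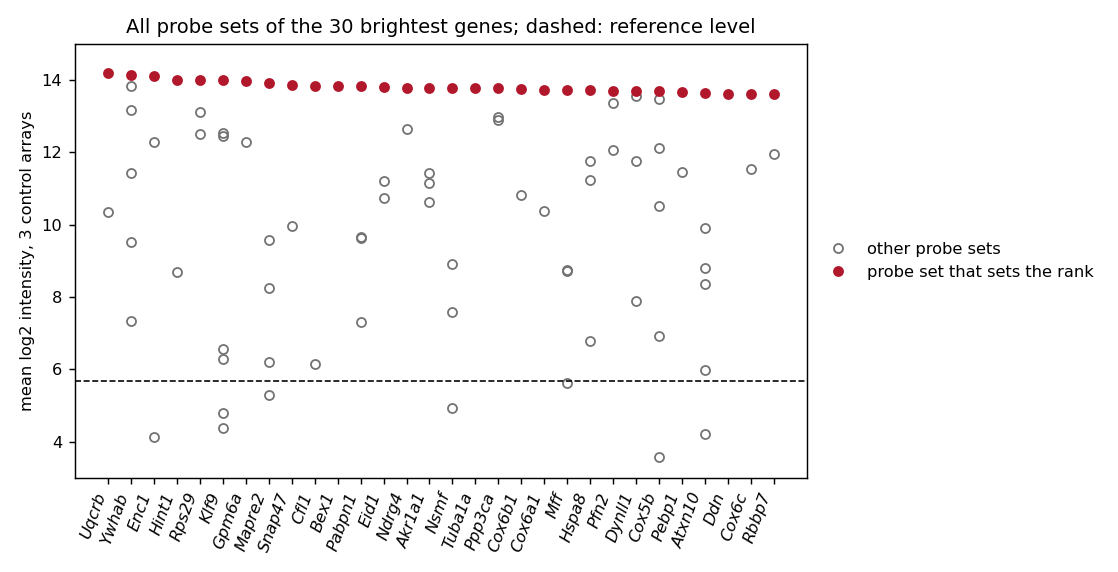
Mean log2 intensity over the 3 control arrays (vertical axis) of every probe set of the 30 brightest genes, with the probe set that sets the rank in red and the others as open circles. Red points lie between 13.61 and 14.20 while open circles spread down to 3.57 for Cox5b and 4.14 for Enc1.

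The markers fixed for granule cells had signal on every array. Dsp, a desmosomal plaque protein found among hippocampal neurons in granule cells, read 7009 on mouse 1 and 8376 and 9391 on mouse 2 (13.00 ± 0.21, rank 111). Calb1, the calcium buffer calbindin, read 6736, 6811 and 7034 (12.74 ± 0.03, rank 156). C1ql2, a C1q-like protein secreted at mossy fibre synapses, read 706, 651 and 659 (9.39 ± 0.06, rank 2262). Dsp varied by less than 1 log2 unit between its lowest and highest array, and Calb1 and C1ql2 were nearly level.

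Prox1 read 618, 599 and 651 (9.28 ± 0.06, rank 2413), and Tdo2, tryptophan 2,3-dioxygenase, read 378, 405 and 318 (8.51 ± 0.18, rank 3668). The median percentile of the 5 markers among ranked genes was 87.6 ± 0.34. Other probe sets of these genes were dimmer: 4.26 for the dimmest of Prox1, 5.72 for that of Calb1, 5.97 for that of Tdo2 and the floor for that of Dsp.

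Of 14 further genes known from granule cells, 13 were measured. All 13 were above the reference level (52.9% of all ranked genes were) and 9 were in the brightest 10% (10% of all ranked genes are). This list was chosen with earlier results of these data known, so its counts are not independent support for the cell label. Bcl11b, a zinc finger factor also called Ctip2 that is needed for granule cell development, read 7366, 8623 and 7784 (12.95 ± 0.12). C1ql3, a relative of C1ql2 that acts with it at mossy fibre synapses, read 6341, 6779 and 6292 (12.66 ± 0.06). Zbtb20, a transcriptional repressor needed for hippocampal development, stood at 12.10 ± 0.19 and Lct, lactase, at 11.38 ± 0.04. The lower end of the list held Glis3, a zinc finger factor, at 8.69 ± 0.26, Trpc6, a cation channel, at 8.59 ± 0.07 and Plk5, a polo-like kinase, at 7.72 ± 0.07.

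**Figure D3:**
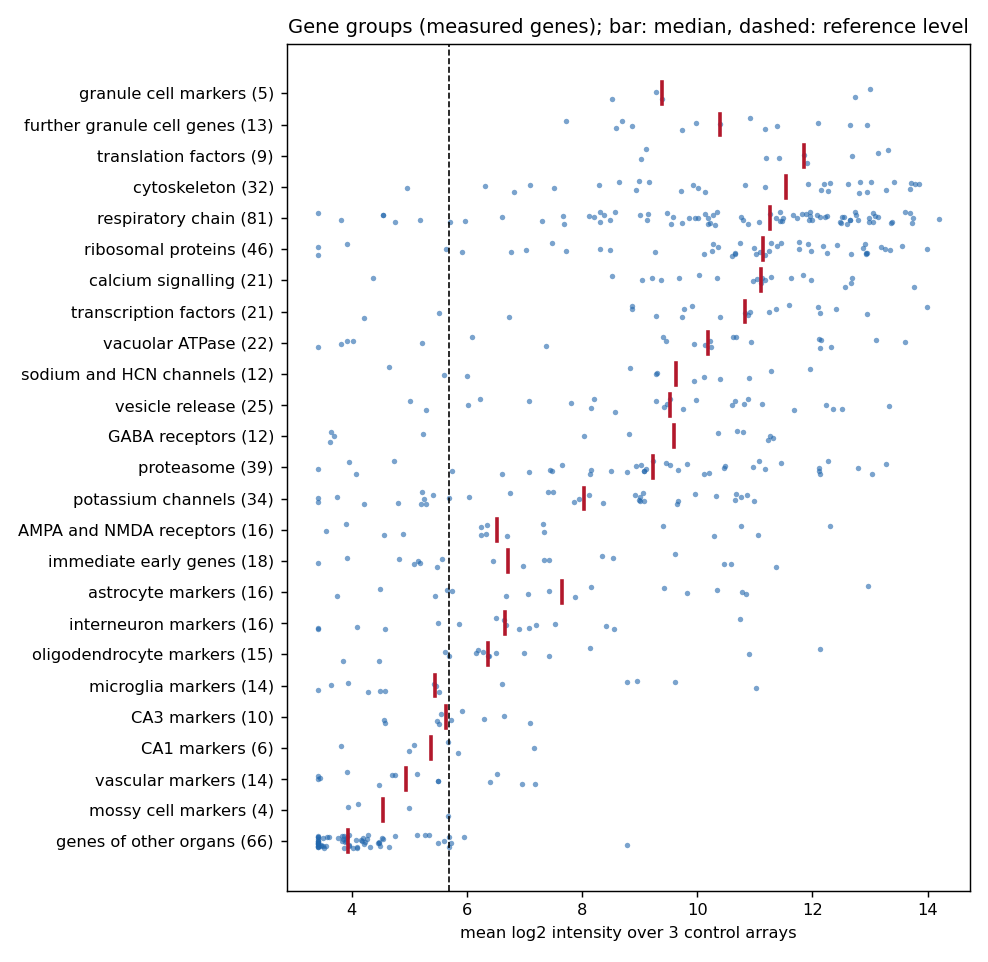
Mean log2 intensity over the 3 control arrays (horizontal axis) of each measured gene (blue points, spread vertically at random) in 25 gene groups, with the number of measured genes in brackets, the median as a red bar and the reference level as a dashed line. Genes of other organs have a median of 3.93, the 5 granule cell markers one of 9.39 and translation factors one of 11.85.

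Among 21 neuronal transcription factors, 19 were above the reference level and 14 in the brightest 10%. Their median was 10.82, beside the 5.94 of all ranked genes. This list, which shares Bcl11b and Zbtb20 with the further granule cell genes, was also chosen with earlier results of these data known. Besides Klf9 and Bcl11b, Tcf4, a basic helix-loop-helix factor, stood at 12.41 ± 0.05, Nfib, a nuclear factor I protein, at 12.13 ± 0.15 and Mef2c, an activity-regulated factor, at 11.60 ± 0.09. Neurod6, known from pyramidal cells, read 49.8, 42.7 and 45.5 (5.52 ± 0.11), under the reference level. Tcf7l2, a Wnt pathway factor of the thalamus, was at 4.22 ± 0.74.

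RNA-binding proteins were bright in 10 of 21 cases (brightest 10%) and above the reference level in 20. Rbfox1, a splicing regulator, read 9682, 11176 and 10852 (13.36 ± 0.11), and Rbfox3, the antigen of the neuronal NeuN antibody, read 8081, 8613 and 8040 (13.01 ± 0.06). Hnrnpk, an abundant nuclear RNA-binding protein, stood at 13.36 ± 0.12 and Celf1, a regulator of splicing and mRNA decay, at 12.93 ± 0.11. Elavl4, which encodes HuD, read 122, 92.8 and 63.7 (6.49 ± 0.47) in these control cells.

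Some noncoding RNAs reached the same range, with 4 among the 182 genes of the brightest 1%. As a class they were mostly dim: the 8577 genes at or below the reference level held 1253 noncoding ones. The 7797 genes between that level and the brightest 10% held 200. Malat1, a nuclear RNA of speckles, read 10101, 11228 and 12831 (13.47 ± 0.17, rank 44). Norad, a cytoplasmic RNA that binds Pumilio proteins, stood at 12.91 ± 0.06 and Meg3, a maternally expressed imprinted RNA, at 12.72 ± 0.10. Xist, the RNA that coats the inactive X chromosome, read 6688 on mouse 1 and 5874 and 7569 on mouse 2, so it was bright in all 3. Ndn, an imprinted protein-coding gene of the necdin family, stood at 13.09 ± 0.08.

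Genes of energy metabolism were mostly bright. Of 81 subunits of the respiratory chain and ATP synthase, 75 were above the reference level and 55 in the brightest 10%, with a median of 11.26. The dimmest members were Cox7a1 (4.54 ± 0.80), Cox8b (3.82 ± 0.70) and Cox6b2 (the floor on all arrays), which are known as forms of muscle or testis. All 12 measured glycolytic enzymes were above the reference level, from Pgk1, phosphoglycerate kinase, at 13.13 ± 0.17 and Aldoa, aldolase A, at 12.37 ± 0.15 to Ldha, lactate dehydrogenase A, at 8.17 ± 0.21. Atp1b1, a subunit of the sodium pump, read 9405, 10722 and 10170 (13.30 ± 0.10), and Slc12a5, the chloride exporter KCC2 of mature neurons, read 2562, 3073 and 3011 (11.49 ± 0.14).

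Translation and protein turnover were read in the same way. Of 46 ribosomal protein genes, 42 were above the reference level and 34 in the brightest 10%. Rpl3l and Rpl39l, known as forms of muscle and testis, lay at 3.91 ± 0.87 and at the floor. Rps16, a subunit of every ribosome, was also at the floor, with 0.74, 0.59 and 0.77 on its only named probe set, so a value at the floor does not show that an mRNA is absent. Of 39 proteasome genes 35 were above the reference level, led by the base ATPase Psmc2 at 13.27 ± 0.11, while Psmb11 of the thymus lay at the floor and Psmb8, an immunoproteasome subunit, at 4.08 ± 0.58. For the vacuolar ATPase, which acidifies vesicles, 17 of 22 genes were above it. Atp6ap2 stood at 13.61 ± 0.18 and Atp6v1d at 13.10 ± 0.10, and Atp6v1b1 and Atp6v0a4, known from kidney, at 3.92 ± 0.88 and the floor.

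The cytoskeleton list had 31 of 32 measured genes above the reference level and 21 in the brightest 10%. Stmn3, a microtubule-destabilising protein, stood at 13.41 ± 0.11 and Tuba4a at 13.28 ± 0.12. Tubb3, the neuronal beta-tubulin, was read far lower at 81.4, 77.8 and 79.6 (6.31 ± 0.03), and Pfn1, the widespread profilin, at 4.97 ± 1.12. Adhesion proteins were all above the reference level (19 of 19), led after Gpm6a by Gpm6b, its relative, at 11.73 ± 0.18 and Ncam1, the neural cell adhesion molecule, at 11.64 ± 0.20.

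Genes of vesicle release were above the reference level in 23 of 25 cases and in the brightest 10% in 12. Rab3a, a small GTPase of synaptic vesicles, read 9097, 12603 and 9506 (13.33 ± 0.26). Nsf, which disassembles SNARE complexes, stood at 12.51 ± 0.14, Cplx1, a complexin, at 12.36 ± 0.17 and Snap25, a SNARE, at 12.23 ± 0.33. Slc17a6, the vesicular glutamate transporter of subcortical neurons, was below the reference level at 73.6, 38.7 and 11.7 (5.01 ± 1.34). Of the zinc genes, Slc30a3, which loads zinc into mossy fibre vesicles, read 505, 288 and 230 (8.33 ± 0.58), highest on mouse 1. Mt1, a metallothionein, read 1588, 2463 and 1609 (10.85 ± 0.36).

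Glutamate receptors covered a wide range. Of 16 measured AMPA and NMDA receptor genes with their auxiliary subunits, 12 were above the reference level and 4 in the brightest 10%. Their median was 6.53, and 52.9% of all ranked genes were above the reference level. Gria2, the subunit that makes AMPA receptors impermeable to calcium, read 4772, 5277 and 5203 (12.31 ± 0.08). Gria1 stood at 11.05 ± 0.11, Shisa9, an auxiliary protein known as CKAMP44, at 10.77 ± 0.22, Gria3 at 10.29 ± 0.19 and Grin2b, an NMDA receptor subunit, at 9.41 ± 0.14. Grin2a read 15.2, 13.4 and 16.3 (3.90 ± 0.15), below the reference level on each array.

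Among kainate and metabotropic receptors, 10 of 13 were above the reference level (52.9% of all ranked genes were). Grm7, a presynaptic receptor, stood at 10.84 ± 0.03, Grm5, which couples to calcium release, at 9.85 ± 0.17 and Grik2, a kainate receptor subunit, at 9.19 ± 0.12. Scaffolds were above it in 12 of 13 cases, led by Dlgap1 at 11.16 ± 0.21 and Dlg3, which encodes SAP102, at 10.09 ± 0.14. The dimmest scaffold was Shank1 at 4.76 ± 1.39.

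Inhibitory receptors were read in 12 genes, of which 8 were above the reference level (52.9% of all ranked genes were) and 6 in the brightest 10%. Gabra2 stood at 11.32 ± 0.28, Gabrb1 at 11.23 ± 0.03, Gabra4 at 10.79 ± 0.02 and Gabra5 at 10.36 ± 0.16, all subunits of GABA-A receptors. Gabbr1, a GABA-B receptor subunit, stood at 11.25 ± 0.12. Gabra3, Gabrg3 and Gabra6, the last known from cerebellar granule cells, lay at 3.69 ± 0.48, 3.64 ± 0.40 and 3.62 ± 0.37.

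Ion channels showed a similar split. Of 34 potassium channel genes 23 were above the reference level (52.9% of all ranked genes were). Kcnd2, a channel of the dendritic A-type current, stood at 10.98 ± 0.11, Kcnj3, a G protein-gated channel, at 10.87 ± 0.13 and Kcnc1, a fast-deactivating channel, at 10.76 ± 0.07. Kcnk3 and Kcnn3 were at the floor on all arrays. Sodium and HCN channel genes were above the reference level in 10 of 12 cases, led by the auxiliary subunit Scn3b at 11.95 ± 0.13 and the pore-forming Scn2a at 10.89 ± 0.12. All 13 measured calcium channel genes were above the reference level, from Cacna1e, the R-type channel, at 10.94 ± 0.08 to Cacna1g, a T-type channel, at 6.13 ± 0.38.

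Calcium signalling genes were among the brighter groups, with 20 of 21 above the reference level, 15 in the brightest 10% and a median of 11.11. After Ppp3ca came Camk2n1, an inhibitor of CaMKII, at 12.68 ± 0.16 and Atp2b1, a plasma membrane calcium pump, at 12.67 ± 0.02. The other calcineurin subunits Ppp3cb and Ppp3r1 stood at 11.97 ± 0.08 and 11.84 ± 0.11. Camk2d, a CaMKII form known from heart, read 15.7, 30.7 and 18.3 (4.37 ± 0.51).

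Receptors for hormones and growth factors were read as well. Nr3c2, the mineralocorticoid receptor, read 2453, 2366 and 1847 (11.11 ± 0.22) and Nr3c1, the glucocorticoid receptor, read 767, 756 and 823 (9.61 ± 0.07). Ntrk2, the BDNF receptor TrkB, read 1485, 1539 and 1718 (10.62 ± 0.11), and Bdnf itself 608, 577 and 535 (9.16 ± 0.09). In the secretory pathway, Cpe, which trims neuropeptides, stood at 12.34 ± 0.19 and Chgb, a granin, at 11.46 ± 0.05.

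Immediate early genes, many of which are switched on by neuronal activity, were above the reference level in 10 of 18 cases, near the 52.9% of all ranked genes. Egr3 read 2698, 2739 and 2471 (11.36 ± 0.08), Jund 1496, 1826 and 1309 (10.58 ± 0.24) and Egr1 878, 760 and 725 (9.62 ± 0.14). Arc, Fosb and Npas4 lay at 4.82 ± 1.22, 3.92 ± 0.88 and the floor.

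Markers of other cells of the region were read beside the granule cell genes. Of 6 measured CA1 markers 2 were above the reference level, led by Wfs1, an endoplasmic reticulum protein, at 193, 172 and 89.4. Of 10 CA3 markers 5 were, led by Bok, a BCL2 relative, at 130, 151 and 131. Neither share exceeded the 52.9% of all ranked genes. Fibcd1, a CA1 marker, read 20.5, 46.3 and 40.7, under the reference level on each array. None of the 4 mossy cell markers was above it on average (Calb2, calretinin, 94.5, 66.3 and 21.6). In the CA2 list Pcp4, a calmodulin-binding protein also known from granule cells, read 11157, 13512 and 10380 (13.50 ± 0.20), and 5 of 6 genes were above it.

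Of 16 interneuron markers 11 were above the reference level (52.9% of all ranked genes were). Gad1, the GABA-synthesising enzyme that granule cells are also known to make, read 1795, 1618 and 1748 (10.75 ± 0.08) on its brighter probe set. Its other probe set read 18.9, 8.40 and 77.4 (4.64 ± 1.47), on average below the reference level. Gad2 read 257, 115 and 106. Pvalb, parvalbumin, read 159, 161 and 98.2, and the defining factors Dlx1 and Lhx6 lay at the floor and at 4.10 ± 0.73. The summed intensity of the list was 4295 on mouse 1 and 3331 and 3120 on mouse 2.

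Glial markers had signal too. Of 16 astrocyte markers 12 were above the reference level (52.9% of all ranked genes were). Bright ones were Clu, clusterin, at 9623, 8625 and 6268, and Gja1, connexin 43, at 2516, 1500 and 1440, while Aldh1l1 was below the reference level at 27.8, 20.5 and 19.9. Of 15 oligodendrocyte markers 11 were above it, led by Mbp, myelin basic protein, at 7661, 3871 and 3010 and Cnp, a myelin enzyme, at 3123, 1728 and 1292. Among 14 microglia markers 5 were, a smaller share than the 52.9% of all ranked genes. The brightest were Csf1r, a growth factor receptor, at 2348, 2365 and 1591 and Ctss, a lysosomal protease, at 779, 875 and 696. Aif1 lay at 3.63 ± 0.39 and Itgam at the floor. The summed intensity ran from 12785 to 19222 for astrocytes, from 5196 to 12838 for oligodendrocytes and from 3337 to 4688 for microglia, beside 15447 to 18052 for the 5 granule cell markers. These sums cover 16, 15, 14 and 5 genes, and single genes weigh heavily, such as Clu with 9623 on mouse 1. They therefore do not compare amounts of RNA between cell types. How much RNA of these cells entered the values above was not tested.

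Of 14 vascular markers 4 were above the reference level, a smaller share than the 52.9% of all ranked genes. Cldn5, a tight junction protein, read 140, 88.3 and 62.4, and Pecam1 and Tagln lay at the floor. Of 4 listed blood genes only 2 were measured, Hba-a1 and Alas2, each on 1 probe set. Neither was above the reference level, which does not show that blood RNA was absent. Of 11 measured genes of developing neurons and progenitors 9 were above it, with Sox11 at 1384, 1336 and 1195, Dcx, doublecortin, at 320, 419 and 365 and the cycling marker Mki67 at 4.50 ± 0.70.

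**Figure D4:**
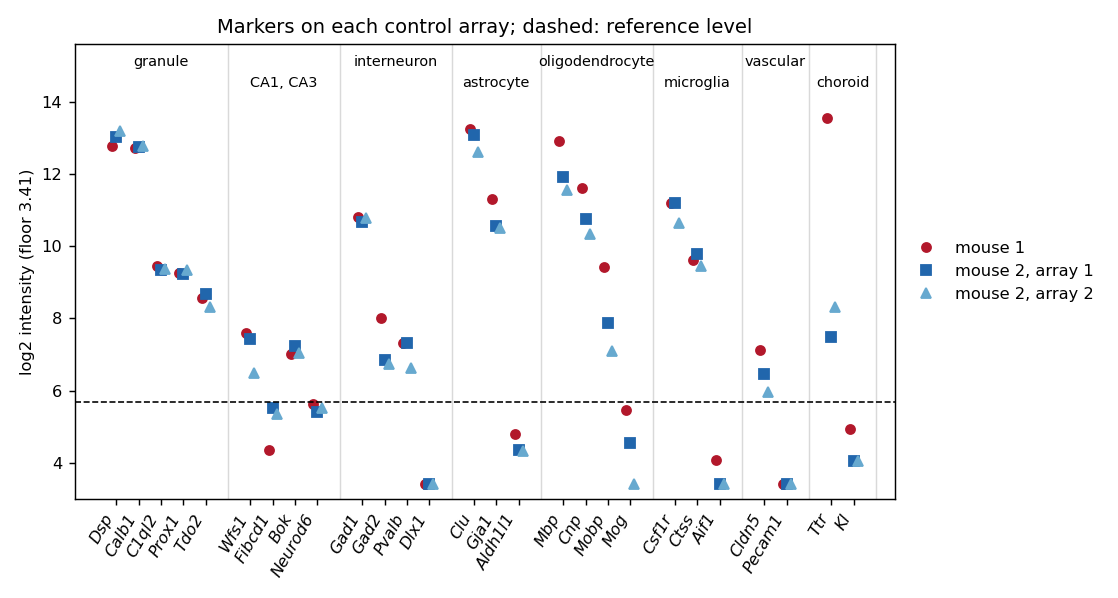
Log2 intensity (vertical axis, floor 3.41) of marker genes of granule cells and of other cell types on each of the 3 control arrays, with mouse 1 as red circles and the arrays of mouse 2 as blue squares and light blue triangles. All 5 granule cell markers lie above the dashed reference level on each array, Mbp and Cnp are highest on mouse 1, and Ttr stands at 11996 on mouse 1 against 178 and 319 on mouse 2.

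The control mice differed in few of the genes above the reference level. On mouse 1, 83 of 9616 genes (0.863%) were higher by at least 1 log2 unit than the mean of mouse 2 and 62 (0.645%) were lower. Between the arrays of mouse 2, 129 (1.34%) and 97 (1.01%) passed the same fold in either direction, 226 in all. Mouse 1 set against a single array of mouse 2 gave 258 and 245, close to the 226 between the arrays described as mouse 2. If these arrays come from different mice, as their titles leave possible, there is no comparison within a mouse. In the brightest 1% none of the 182 genes passed the fold in either comparison. With 1 array of mouse 1 there is no test, and the mouse cannot be told apart from the tag re-LCM in its title.

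Of the granule cell genes, 0 of the 5 markers and 0 of the 13 further genes passed the fold, beside the 0.863% and 0.645% of all genes above the reference level, so these counts are near the background. Myelin genes differed as a group, with all 11 oligodendrocyte markers above the reference level higher on mouse 1, 6 of them past the fold and a median difference of 1.06. Mobp, a myelin protein, read 683 against 235 and 137. All 12 such astrocyte markers were higher on mouse 1 too, 0 past the fold, with a median of 0.56, and 9 of 11 interneuron markers were, 3 past it. Over all 9616 genes above the reference level the median difference was -0.0014. Of 7 choroid plexus genes 2 were above the reference level. Ttr, transthyretin, was higher on mouse 1 by 5.65 log2 units and on all 4 of its probe sets, while Clic6, a chloride channel protein, read 68.0, between the 118 and 46.0 of mouse 2. Kl, another choroid plexus gene, read 30.6, 16.7 and 16.5, below the reference level on each array.

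Apart from these, the largest differences with steady values on mouse 2 were in dim genes. Gng4, a G protein subunit, read 561 against 177 and 140, Timp2, a protease inhibitor, 545 against 176 and 178, and Tox2, a transcription factor, 524 against 188 and 194. Ndrg1 and Car2, both known from oligodendrocytes as well, read 221 against 79.6 and 80.4 and 147 against 52.7 and 54.0. Lower on mouse 1 were Chrd, the BMP antagonist chordin, at 23.8 against 84.9 and 91.9, and Slpi, a protease inhibitor, at 36.0 against 120 and 127. Both read below the reference level (intensity 51.7) on mouse 1, so their means passed it only through mouse 2.

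**Figure D5:**
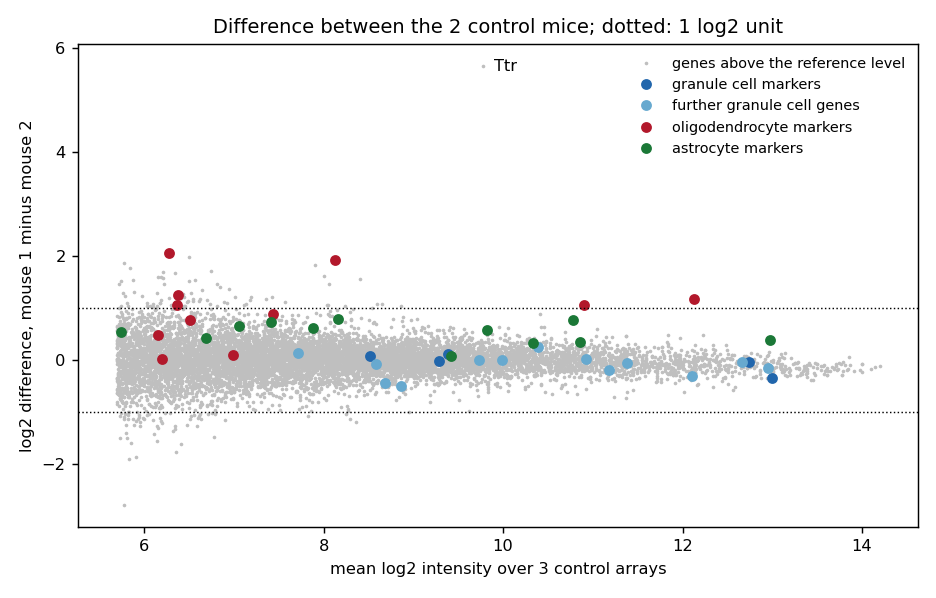
Log2 difference of mouse 1 minus the mean of the arrays of mouse 2 (vertical axis) against mean log2 intensity (horizontal axis) for the 9616 genes above the reference level (grey), with 4 marker lists in colour and dotted lines at 1 log2 unit. Granule cell genes lie inside the dotted lines, 6 oligodendrocyte markers lie above the upper line, and Ttr stands at 5.65.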

How the data were processed

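Mouse 430 2.0 probe sets were measured in 3 control arrays. The authors deposited linear intensity values, scaled so that the 2% trimmed mean is 150.001 on each array. For the program that combined probes and for its background correction, names were not given in the sources used here. The 64 control probe sets were left out of 45101. In the platform annotation 34945 of the rest had 1 symbol, 932 several and 9160 none, and 34741 of the single symbols matched a RefSeq table, which changed 0 of them. Values under the pooled 25th percentile were set to it, log2 was taken, and the probe set of the highest mean represented a gene. Work was done in Python 3.11.15 with pandas 2.3.3 and numpy 2.4.6, and the ranking was tested on simulated data. No test was run, since all results describe 1 group. Named were the 5 markers, the 30 brightest genes, up to 6 brightest and 3 dimmest members of each list, the 10 genes per direction that differed most between the mice among those whose mouse 2 arrays lay within 0.5 log2, and the 5 genes with the widest probe set gaps. The exceptions, chosen after their values were seen, are some noncoding RNAs and the genes shared by all settings. The members and gene lists were chosen with earlier results of these data known. Alternatives changed the floor, scaling, array weights, probe sets, reference level and arrays. The number of arrays limits the precision.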

Additional observations from a re-analysis of the deposited data

How the results depend on the processing

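No paired analysis was possible because the results come from no test. The 9616 genes above the reference level became 3219 with the reference at the maximum of the other-organ list, which is set by Krt10 alone. The share held by the 100 brightest genes rose from 15.839% to 19.54% with the median over a gene's probe sets. The median percentile of the granule cell markers was 87.572, and 95.234 with that median and 89.884 without _x_at and _s_at probe sets. The 145 genes past 1 log2 unit between the mice became 258 and 245 against array 1 or array 2 of mouse 2 alone, and 1577 over all ranked genes, dim ones included. For other changes the cause was not tested. Leaving out each array in turn gave 9364 to 9727 genes above the reference level, shares of 15.235% to 16.225% and marker percentiles of 87.275 to 87.616. Of 42 other gene lists, the median percentile moved by more than its SD over arrays in 32 with the median over probe sets, by up to 19.9 points, and in 25 without _x_at and _s_at probe sets, by up to 6.91 points. The floor, the scaling and the weights moved at most 2 lists each, and leaving out an array moved 2 to 5. The planned share of promoters with a TATA box was not run: only 79.4% of the ranked genes have a promoter in the table, under the 80% needed, so the check is void. Dim values are limited by signal over background, with 24.5% to 25.6% of probe sets at the floor.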

Other observations

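Some bright signal has no gene name. Of 10092 probe sets with several gene symbols or none, 2429 (24.1%) were above the reference level, 57 were above the 12.60 that bounds the brightest 1% of ranked genes, and the brightest reached 14.44, above Uqcrb. The list of other-organ genes had 4 of 66 members above its own 95th percentile, a count set by the definition of the reference level. One of them, Krt10, a keratin of skin, read 460, 491 and 370 (8.77 ± 0.21), on all 3 arrays.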
